A study of Mus musculus with 9 samples.

Results

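The genes described here are 10 hypoxia-induced genes whose products work outside glycolysis: Vegfa, Adm, P4ha1, P4ha2, Bnip3, Ndrg1, Ankrd37, Kdm3a, Bhlhe40 and Mxi1. They were chosen by name, and every probe set of the array that carries 1 of these symbols alone was taken, which gave 18 of 45101 probe sets (10 of 18194 genes with a probe set of their own). The arrays measured 3 pieces each of a liver tumor, of adjacent liver and of wild-type liver, 1 array per piece. The tumor (hepatocellular carcinoma with severe steatosis) and the adjacent liver (cellular alteration with severe steatosis) came from a single SART1+/- mouse, and the wild-type liver (normal, with mild steatosis) from a single wild-type mouse. Both were male C57Bl6 mice aged 12 months, kept on regular chow without treatment, and male SART1+/- mice formed such tumors spontaneously from 10 months. The sources used here do not give how the Sart1 allele was altered. The pieces of a group are not separate animals, so each p-value measures how pieces within a single organ or tumor vary, and the genotype cannot be told apart from the animal.

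Cells short of oxygen stabilise the hypoxia-inducible factors Hif1a and Epas1, which pair with Arnt and bind a short core sequence near their target genes. Prolyl hydroxylases of the Egln family mark these factors for destruction when oxygen is present, and the hydroxylase Hif1an weakens their activity. Sart1, a splicing protein also called hypoxia-associated factor, has been described as promoting the breakdown of Hif1a and the activity of Epas1. The target genes code for signals to blood vessels (Vegfa, Adm), collagen-modifying enzymes (P4ha1, P4ha2), a mitophagy receptor (Bnip3), a stress-response protein (Ndrg1), an ankyrin-repeat protein (Ankrd37), a histone demethylase (Kdm3a) and repressors of transcription (Bhlhe40, Mxi1).

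Promoter windows from RefSeq (build GRCm38.p6) were searched for the binding core of the hypoxia-inducible factors, written as ACGTG or GCGTG, on both strands. Each window holds 300 bases, of which 250 precede the start of the transcript and 50 follow from it. The table used held 13 windows for 8 of the 10 genes, and 9 of these windows contained a match, at least 1 for each of the 8 genes. Of all 32817 windows provided, 43.8% contained a match, and of the 26994 genes with a window 46.7% had at least 1 that did. The 4 windows printed belong to the called gene Mxi1, to Bnip3, which was lower in tumor, and to Adm and P4ha1, which were higher, so that both directions are shown. Letters run 5′ to 3′ on the strand of the gene, and capitals mark every match, read on either strand. For Mxi1 the second of 3 windows is shown, while the first held 0 matches and the third held 1.
Mxi1, chr19:53329163-53329462, plus strand: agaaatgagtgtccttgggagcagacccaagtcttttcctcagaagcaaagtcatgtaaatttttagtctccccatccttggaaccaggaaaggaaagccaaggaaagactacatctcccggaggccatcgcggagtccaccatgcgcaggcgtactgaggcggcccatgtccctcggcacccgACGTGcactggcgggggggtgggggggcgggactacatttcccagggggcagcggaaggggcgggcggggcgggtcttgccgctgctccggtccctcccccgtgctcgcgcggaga
Bnip3, chr7:138909457-138909756, minus strand: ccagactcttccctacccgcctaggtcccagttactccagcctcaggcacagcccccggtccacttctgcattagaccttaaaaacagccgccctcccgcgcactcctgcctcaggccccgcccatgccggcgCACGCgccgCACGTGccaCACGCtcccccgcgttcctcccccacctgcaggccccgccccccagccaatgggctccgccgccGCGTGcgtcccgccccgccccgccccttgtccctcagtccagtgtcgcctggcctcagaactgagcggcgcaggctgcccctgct
Adm, chr7:110627407-110627706, plus strand: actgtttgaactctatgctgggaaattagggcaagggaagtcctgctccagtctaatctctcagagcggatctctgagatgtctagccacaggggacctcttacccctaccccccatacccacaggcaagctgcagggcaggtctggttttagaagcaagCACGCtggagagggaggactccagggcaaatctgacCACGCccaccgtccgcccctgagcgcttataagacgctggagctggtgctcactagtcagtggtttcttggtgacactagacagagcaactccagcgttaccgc
P4ha1, chr10:59323046-59323345, plus strand: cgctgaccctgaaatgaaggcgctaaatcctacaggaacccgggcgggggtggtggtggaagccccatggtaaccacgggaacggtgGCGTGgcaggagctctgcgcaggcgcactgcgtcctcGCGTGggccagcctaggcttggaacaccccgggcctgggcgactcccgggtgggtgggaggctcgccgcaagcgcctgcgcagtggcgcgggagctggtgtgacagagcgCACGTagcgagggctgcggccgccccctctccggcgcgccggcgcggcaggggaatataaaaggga

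The Mxi1 window has 1 match, an ACGTG at position -66 from the start. The Bnip3 window has 5, at positions -117, -108, -107, -99 and -35, and the matches at -108 and -107 overlap, since CACGTG reads as ACGTG on either strand. The Adm window has 2 matches on the opposite strand, at -90 and -54. The P4ha1 window has 3, at -163, -126 and -16. The printed windows all held the core, but all 8 genes with a window had a match, and for Mxi1 a window with a match was printed. They thus cannot compare the genes that were lower in tumor with those that were higher. A match describes letters only and says nothing about binding in these tissues.

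Levels are log2 expression values, on which a difference of 1 is a 2-fold change. A probe set was called when limma's adjusted p was under 0.05 and the difference was at least 2-fold. The words rose and fell are kept for calls. Other gene lists are counted by the brightest probe set of each gene. For scale, with 1 probe set tested per gene, 1168 of 13888 genes were called higher and 638 lower in tumor against wild-type liver. The counts were 1152 and 447 for adjacent against wild-type liver, and 292 and 408 for tumor against adjacent liver. Of the 18 probe sets 17 passed the filter on dim probe sets, covering 9 genes, and Ankrd37 did not pass.

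The 10 genes did not move in a single direction in the tumor. Mxi1 fell, Bnip3 was lower by less than 2-fold, and Ndrg1, Kdm3a, P4ha1 and Adm were higher by less than 2-fold, with the probe sets of Vegfa in disagreement. Against wild-type liver, 1 of the 17 probe sets was called in tumor and was lower, where 12.0% of all 24140 tested probe sets were called and 4.22% were called lower. At an adjusted p under 0.05 with no limit on size, 11 were higher and 3 lower in tumor, and of all probe sets 32.4% passed as higher and 28.7% as lower. The 3 tumor values did not overlap the 3 wild-type values for 14 of the 17, against 66.8% of all probe sets. The median difference was 0.36 over the 17 probe sets, where it was -0.008 over all. Ndrg1 has 5 of the 17 probe sets. Counted by the brightest probe set of each gene, 4 of 9 genes were higher and 2 lower at an adjusted p under 0.05, with a median of 0.08. Of all 13888 genes 32.9% were higher and 29.8% lower by that rule.

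In adjacent liver against wild-type liver, Ndrg1 rose and no other gene of the 10 was called. The 4 called probe sets of 17 were all of Ndrg1, where 10.7% of all tested probe sets were called and 7.46% were called higher. Without the limit on size, 7 were higher and 3 lower, where of all probe sets 31.9% were higher and 28.9% lower. The groups did not overlap for 10 of the 17, against 67.9% of all. By brightest probe set, 2 genes were higher and 2 lower among 9, with a median of -0.09, where 33.8% of all genes were higher and 28.4% lower.

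In tumor against adjacent liver, none of the 17 probe sets was called by limma, where 4.72% of all probe sets were. At an unadjusted p under 0.05 there were 15, against 50.1% of all probe sets, and at an adjusted p under 0.05 without the limit on size there were 5 higher and 9 lower, where of all probe sets 21.0% were higher and 22.6% lower. The 9 lower ones were the 5 of Ndrg1, both of Mxi1, and those of Bnip3 and Bhlhe40. The 5 higher ones were both of P4ha1 and 1 each of Vegfa, Adm and Kdm3a. The groups did not overlap for 14 of the 17, against 52.2% of all. By brightest probe set, 3 of 9 genes were higher and 4 lower, with a median of -0.15, where 19.8% of all genes were higher and 24.7% lower.

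**Figure D1:**
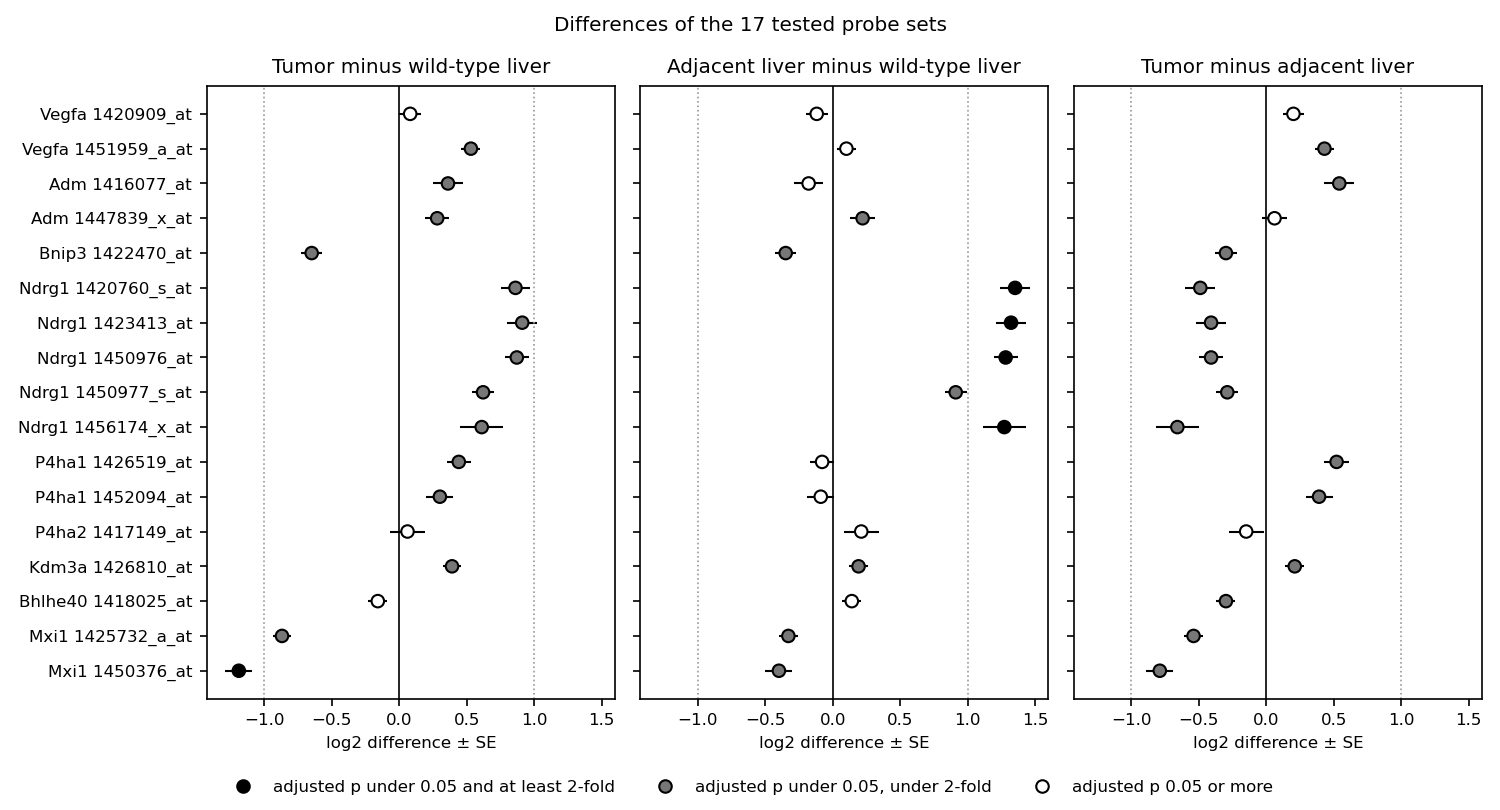
Log2 differences (± SE, limma, n = 3 arrays per group) of the 17 tested probe sets, with tumor minus wild-type liver on the left, adjacent minus wild-type liver in the middle and tumor minus adjacent liver on the right. Black points were called, grey points had an adjusted p under 0.05 at less than 2-fold, and open points did not pass. Mxi1 1450376_at is called on the left at -1.19, and 4 of the 5 Ndrg1 probe sets are called in the middle panel.

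Vegfa, the main growth factor for endothelial cells, was measured by 2 probe sets that gave different answers. The dimmer one, 1451959_a_at, read 8.97, 9.06 and 9.05 in tumor, 8.51, 8.70 and 8.58 in adjacent liver, and 8.51, 8.47 and 8.51 in wild-type liver. All 3 tumor values lay above all the others, and tumor was 1.44-fold higher than wild-type liver (log2 difference 0.53, SE 0.07, limma adjusted p = 3.7e-05). It was also higher in tumor than in adjacent liver, by 0.43 (SE 0.07, limma adjusted p = 0.000317). The brighter one, 1420909_at, read 9.33, 9.28 and 9.08 in tumor, 8.90, 9.15 and 9.03 in adjacent liver, and 9.13, 9.16 and 9.14 in wild-type liver. Its groups overlapped, with 1 tumor piece under all wild-type pieces. Its difference was 0.08 between tumor and wild-type liver (SE 0.08, limma adjusted p = 0.396) and 0.20 between tumor and adjacent liver (SE 0.08, limma adjusted p = 0.0747). The difference from adjacent liver passed without tumor replicate 3 (0.27, limma adjusted p = 0.0204), without adjacent replicate 2 (0.26, 0.0327), with array weights (0.28, 0.00747) and with both probe sets averaged (0.32, 0.00188). Between adjacent and wild-type liver the dimmer probe set differed by 0.10 and the brighter by -0.12 (limma adjusted p = 0.21 and 0.247), and with array weights the brighter passed at -0.17 (limma adjusted p = 0.048). With both probe sets averaged, the difference between tumor and wild-type liver was 0.31 (SE 0.06, limma adjusted p = 0.00143), so the choice of probe set settles whether Vegfa passes. RNA was taken from whole pieces, where fewer cells of a type and less RNA per cell cannot be told apart.

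Of the 9 other VEGF ligands and receptors tested, 1 was called in tumor against wild-type liver. This was Flt4, the receptor of lymphatic endothelium, which rose by 1.83 in tumor and by 1.76 in adjacent liver (limma adjusted p = 5.87e-09 and 1.14e-08). At less than 2-fold, the ligand Vegfc was higher in tumor than in wild-type liver by 0.77 and Vegfd by 0.36, and the ligand Vegfb differed by -0.47 (limma adjusted p = 9.63e-05, 0.00119 and 0.00131). Kdr, the chief signalling receptor for Vegfa, differed by -0.13 (limma adjusted p = 0.189), and Flt1, which also binds Vegfa, by 0.12 (limma adjusted p = 0.476). Against adjacent liver, tumor had 0 calls in this list by limma, with 3 genes higher and 2 lower at an adjusted p under 0.05. The co-receptor Nrp1 was among the lower ones at -0.69 (limma adjusted p = 3.09e-05). Summed over 12 endothelial markers, all above the filter, the linear level was 6145 to 7520 in tumor, 6123 to 6733 in adjacent liver and 6690 to 7159 in wild-type liver. These ranges overlap, and the markers' part in the Vegfa values was not tested.

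Adm codes for adrenomedullin, a peptide that widens blood vessels. Its brighter probe set, 1416077_at, read 6.92, 7.10 and 7.32 in tumor, 6.70, 6.48 and 6.51 in adjacent liver, and 6.85, 6.81 and 6.58 in wild-type liver. The tumor pieces were the highest, just above the nearest wild-type piece, and adjacent and wild-type values overlapped. Tumor exceeded wild-type liver by 0.36 (SE 0.11, limma adjusted p = 0.0157) and adjacent liver by 0.54 (SE 0.11, limma adjusted p = 0.00223). Without wild-type replicate 3 the adjusted p for tumor against wild-type liver became 0.0619, and without tumor replicate 3 it became 0.0614 (limma). The second probe set, 1447839_x_at, was higher in tumor than in wild-type liver by 0.28 (SE 0.09, limma adjusted p = 0.0156). This also missed the threshold when 1 piece was left out, at 0.0583 without wild-type replicate 3 and 0.0561 without tumor replicate 2. Between tumor and adjacent liver that probe set differed by 0.06 (SE 0.09, limma adjusted p = 0.597). Between adjacent and wild-type liver the probe sets pointed opposite ways, at -0.18 for the brighter and 0.22 for the other (limma adjusted p = 0.172 and 0.0486). The second of these reached up to 0.179 under other settings. By the maker's naming, an x in a probe set's name marks probes that may also match other transcripts. Of 4 tested genes, Calcrl and its partners Ramp1, Ramp2 and Ramp3, 0 were called by limma in any comparison. At an adjusted p under 0.05, 0 passed in tumor against wild-type liver, 2 were lower in adjacent against wild-type liver (Ramp1 at -0.39 and Calcrl at -0.19, limma adjusted p = 0.0362 and 0.0244) and 2 were higher in tumor against adjacent liver (Ramp1 at 0.55 and Calcrl at 0.18, limma adjusted p = 0.0092 and 0.0416). Calcrl, the receptor itself, differed by -0.01 between tumor and wild-type liver (limma adjusted p = 0.901), and the partner proteins Ramp1, Ramp2 and Ramp3 differed by 0.16, -0.17 and 0.34 (limma adjusted p = 0.339, 0.16 and 0.137). Ramp2 and Ramp3, which pair with Calcrl in the adrenomedullin receptors, did not pass in any comparison.

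P4ha1 and P4ha2 code for catalytic subunits of collagen prolyl 4-hydroxylase, which lets collagen chains form a stable triple helix. Probe set 1426519_at of P4ha1 read 6.40, 6.37 and 6.64 in tumor, 5.91, 5.86 and 6.09 in adjacent liver, and 6.08, 5.93 and 6.09 in wild-type liver. All tumor values lay above all values of the other groups, which overlapped each other. P4ha1 was higher in tumor than in wild-type liver by 0.44 (SE 0.09, limma adjusted p = 0.00158) and than in adjacent liver by 0.52 (SE 0.09, limma adjusted p = 0.000827). Its brighter probe set, 1452094_at, gave 0.30 (SE 0.10, limma adjusted p = 0.024) and 0.39 (SE 0.10, limma adjusted p = 0.00886). Between adjacent and wild-type liver the probe sets gave -0.08 and -0.09 (limma adjusted p = 0.458 and 0.446). The difference of 0.30 missed the threshold without wild-type replicate 1 (limma adjusted p = 0.1) or without tumor replicate 3 (0.0921).

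P4ha2 read 7.39, 7.37 and 6.85 in tumor, 7.37, 7.34 and 7.35 in adjacent liver, and 7.04, 7.05 and 7.34 in wild-type liver. Tumor replicate 3 was the lowest of all 9 pieces, and the groups overlapped. The differences were 0.06 for tumor against wild-type liver (SE 0.13), 0.21 for adjacent against wild-type liver (SE 0.13) and -0.15 for tumor against adjacent liver (SE 0.13), with limma adjusted p = 0.717, 0.201 and 0.418. With array weights the difference between adjacent and wild-type liver passed, at 0.26 (limma adjusted p = 0.0407).

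Other genes for collagen hydroxylation and folding were mostly higher in tumor than in wild-type liver. Of 8 tested, 6 were higher and 0 lower at an adjusted p under 0.05 (limma), and 1 was called: Crtap, a partner of prolyl 3-hydroxylase, rose by 1.13 (limma adjusted p = 2.65e-05). P4hb, the subunit that pairs with P4ha1 and P4ha2, was higher by 0.28 (limma adjusted p = 0.00215). The collagen genes moved further. Of 11, 7 rose in tumor against wild-type liver (median 1.37) and 8 rose in adjacent liver (median 2.09), with Col1a1 at 2.66 and 3.15 (limma adjusted p = 7.43e-07 and 2.5e-07). In tumor against adjacent liver, where P4ha1 was higher, the collagen genes had a median of -0.20, and the basement membrane chain Col4a1 fell by 1.08 on the log2 scale (limma adjusted p = 6.13e-05). Summed over 10 stellate cell and fibroblast markers, the linear level was 10052 to 14451 in tumor, 8969 to 10740 in adjacent liver and 6419 to 8868 in wild-type liver. The markers did not all move together. At an adjusted p under 0.05 (limma), 7 were higher and 1 lower in tumor against wild-type liver, and 5 higher and 3 lower in adjacent liver. Lrat was lower in both, at -1.11 and -1.02. This list holds Col1a1 and Col3a1, and its part in the P4ha1 values was not tested.

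Bnip3, a protein of the outer mitochondrial membrane that marks mitochondria for autophagy, was lower in both kinds of SART1+/- pieces. The gene lies at chr7:138890836-138909506 (GRCm38.p6). It read 11.45, 11.13 and 11.17 in tumor, 11.50, 11.54 and 11.61 in adjacent liver, and 11.96, 11.89 and 11.86 in wild-type liver. None of the 3 groups overlapped, with tumor lowest and wild type highest. Tumor was 1.57-fold lower than wild-type liver (log2 difference -0.65, SE 0.08, limma adjusted p = 5.61e-05), and adjacent liver was 1.27-fold lower (-0.35, SE 0.08, limma adjusted p = 0.00444). Between tumor and adjacent liver the difference was -0.30 (SE 0.08, limma adjusted p = 0.0137), which missed the threshold without adjacent replicate 3 (limma adjusted p = 0.0513) or without tumor replicate 2 (0.0597). Of 8 other mitophagy genes, limma called 0 in tumor against wild-type liver, with 5 higher and 2 lower at an adjusted p under 0.05. The receptor Fundc1 was higher by 0.69 and the kinase Pink1 differed by -0.45 (limma adjusted p = 9.53e-06 and 0.00036). Against adjacent liver, tumor had 1 call, Bcl2l1, an inhibitor of apoptosis, which rose by 1.02 (limma adjusted p = 8.14e-07).

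Ndrg1, a cytoplasmic protein induced by hypoxia and other stresses, had the widest range of group means among the 10 genes, at 1.35 for its brightest probe set. The gene lies at chr15:66929318-66969641 (GRCm38.p6). That probe set, 1420760_s_at, read 9.89, 9.38 and 9.78 in tumor, 10.14, 10.15 and 10.22 in adjacent liver, and 8.83, 8.88 and 8.77 in wild-type liver. The groups did not overlap, with adjacent liver highest, tumor between and wild type lowest. In adjacent liver Ndrg1 rose 2.54-fold over wild-type liver (log2 difference 1.35, SE 0.11, limma adjusted p = 2.03e-06). In tumor it was 1.81-fold higher than in wild-type liver (0.86, SE 0.11, limma adjusted p = 5.97e-05), under the 2-fold limit. Between tumor and adjacent liver the difference was -0.49 (SE 0.11, limma adjusted p = 0.00463).

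The order adjacent liver, tumor, wild type held for all 5 probe sets of Ndrg1, each without overlap in all 3 comparisons. Their differences were 0.61 to 0.91 for tumor against wild-type liver, 0.91 to 1.35 for adjacent against wild-type liver, and -0.66 to -0.29 for tumor against adjacent liver. Probe set 1450977_s_at gave the lowest of the adjacent differences, at 0.91, and was the 1 not called there. The probe sets measure the same pieces and are not replicates. Tumor replicate 2 was the lowest tumor piece for each of the 5 probe sets. Without it, tumor against wild-type liver gave 1.01 for 1420760_s_at and 1.04 for 1423413_at (limma adjusted p = 2.75e-06 and 5.67e-06), which are calls. Ndrg2 fell by 1.37 on the log2 scale in tumor against wild-type liver (limma adjusted p = 3.74e-08) and differed by -0.42 in adjacent liver (limma adjusted p = 0.000391). Ndrg3 differed by -0.68 and -0.34 in the same comparisons (limma adjusted p = 2.48e-06 and 0.000553), and Ndrg4 by 0.02 and 0.17 (limma adjusted p = 0.908 and 0.249).

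**Figure D2:**
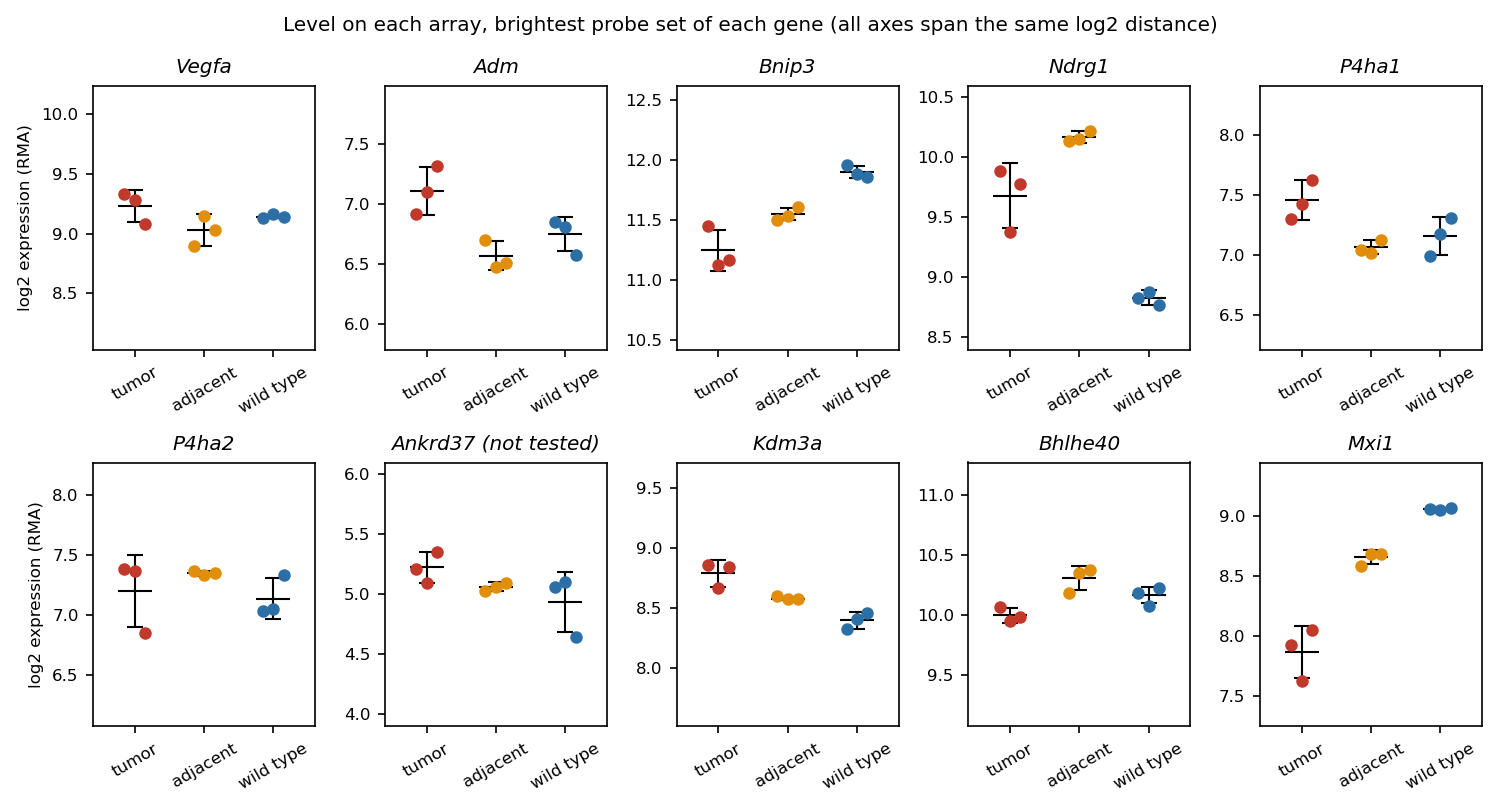
Log2 expression on each array for the brightest probe set of the 10 genes, with tumor in red, adjacent liver in yellow and wild-type liver in blue. Points are pieces, bars are the group mean ± SD (n = 3), and every axis spans the same log2 distance. Ndrg1 is highest in adjacent liver, while Mxi1 and Bnip3 are lowest in tumor, intermediate in adjacent liver and highest in wild-type liver.

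Mxi1 codes for a repressor that pairs with Max and opposes Myc. It was the called gene of the 10 in tumor against wild-type liver and lies at chr19:53310128-53373293 (GRCm38.p6). Its brighter probe set, 1450376_at, read 7.93, 7.63 and 8.05 in tumor, 8.59, 8.69 and 8.69 in adjacent liver, and 9.06, 9.05 and 9.07 in wild-type liver. No groups overlapped, and tumor was lowest. Mxi1 fell 2.28-fold in tumor against wild-type liver (log2 difference -1.19, SE 0.10, limma adjusted p = 1.28e-06), and this ranged from -1.29 to -1.03 over the other settings tried. It was 1.32-fold lower in adjacent than in wild-type liver (-0.40, SE 0.10, limma adjusted p = 0.00384) and 1.73-fold lower in tumor than in adjacent liver (-0.79, SE 0.10, limma adjusted p = 6.73e-05). The second probe set, 1425732_a_at, kept the same order without overlap, at -0.87, -0.33 and -0.54, and was not called.

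Of 12 other genes of the Myc and Max network, 1 was called in each comparison with wild-type liver. Myc rose by 1.76 in tumor and by 1.59 in adjacent liver (limma adjusted p = 4.23e-09 and 1.26e-08). At less than 2-fold in tumor against wild-type liver, Max was higher by 0.74, the repressor Mnt was higher by 0.64, and the repressor Mxd4 differed by -0.45 (limma adjusted p = 0.000176, 2.28e-05 and 0.000116). In tumor against adjacent liver limma called 0 of the 12, and 2 were higher and 2 lower at an adjusted p under 0.05. Myc differed by 0.17 there (limma adjusted p = 0.0662).

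Kdm3a, a jumonji-type histone demethylase that removes repressive marks, was higher in tumor by less than 2-fold. It read 8.86, 8.67 and 8.84 in tumor, 8.60, 8.58 and 8.58 in adjacent liver, and 8.33, 8.41 and 8.46 in wild-type liver. The groups did not overlap, with tumor highest and wild type lowest. Tumor exceeded wild-type liver by 0.39 (SE 0.07, limma adjusted p = 0.000502). The steps of 0.19 for adjacent against wild-type liver and 0.21 for tumor against adjacent liver (SE 0.07 each, limma adjusted p = 0.0366 and 0.0305) each missed the threshold under some settings, with an adjusted p of up to 0.128 and 0.1. Of 10 other jumonji demethylases limma called 0 in each comparison. In tumor against wild-type liver 4 were higher and 0 lower at an adjusted p under 0.05, with Kdm5b at 0.74 and Kdm6b at 0.46 (limma adjusted p = 1.17e-05 and 0.000232).

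Bhlhe40, a repressor that acts in the circadian clock, read 10.07, 9.95 and 9.99 in tumor, 10.19, 10.35 and 10.38 in adjacent liver, and 10.19, 10.08 and 10.23 in wild-type liver. All tumor values lay below all values of the other groups, which overlapped each other. It was lower in tumor than in adjacent liver by less than 2-fold (log2 difference -0.30, SE 0.07, limma adjusted p = 0.00549). Against wild-type liver, tumor differed by -0.16 (SE 0.07, limma adjusted p = 0.0728) and adjacent liver by 0.14 (SE 0.07, limma adjusted p = 0.108). The first of these passed under 2 other settings, at an adjusted p of 0.0108 after cyclic loess, with -0.23, and at 0.0486 with a trended and robust variance model (limma). The second passed without adjacent replicate 1, at 0.20 (limma adjusted p = 0.0448). Of 12 other clock genes 3 rose and 3 fell in tumor against wild-type liver, and 3 rose and 2 fell in adjacent liver. Of all 13888 genes, 1168 were called higher and 638 lower in tumor, and 1152 and 447 in adjacent liver. Cry1, among the fallen genes in both, passed the filter on 3 arrays. It read 5.84 to 6.29 in wild-type liver and 4.49 to 5.09 in the other pieces. It was thus tested only through the group where it is high. Dbp, a clock output gene, rose by 3.65 and 2.71, and Arntl, a core activator, fell by 1.90 and by 1.45 (limma adjusted p = 1.99e-10, 2.4e-09, 1.63e-07 and 1.58e-06). The part of these genes in the Bhlhe40 values was not tested. The sources used here do not give the hour at which the tissue was taken.

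Ankrd37, an ankyrin-repeat protein and a known target of Hif1a, read 5.21, 5.09 and 5.35 in tumor, 5.02, 5.06 and 5.09 in adjacent liver, and 5.06, 5.10 and 4.64 in wild-type liver. Only 2 arrays put it above their 40th percentile, which was 5.1628 to 5.2632, so it was not tested. The groups overlapped, and values this low cannot be told from background.

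**Figure D3:**
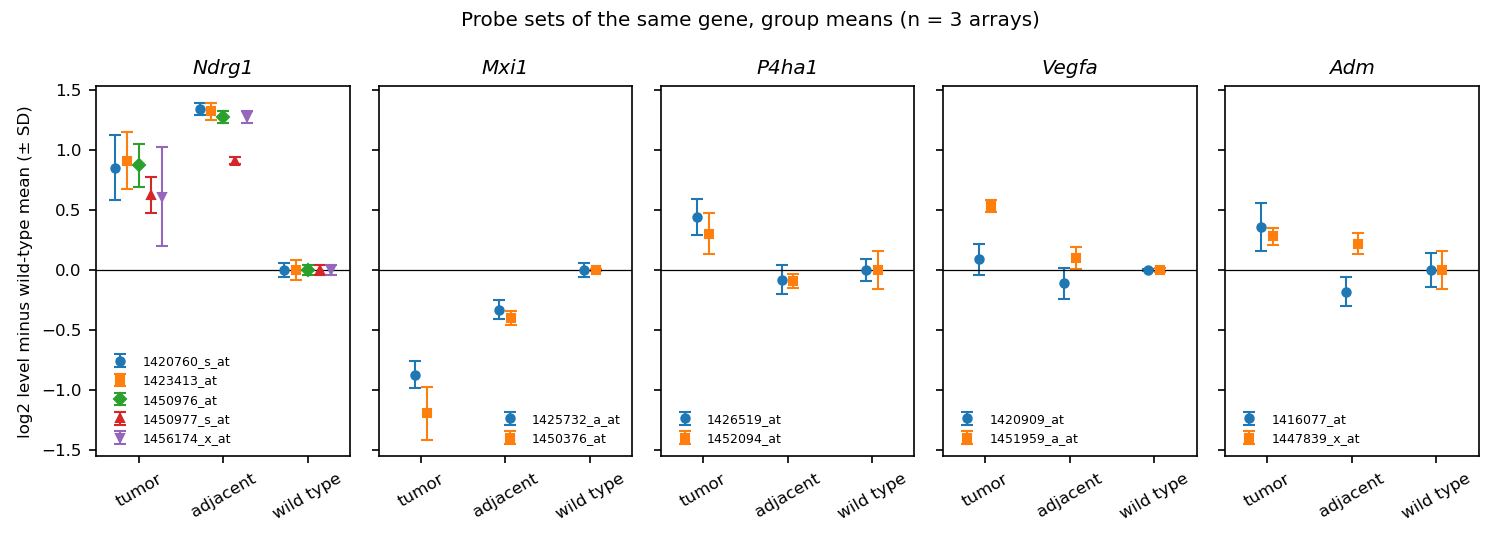
Group means (± SD, n = 3 arrays) of every probe set of the 5 genes with more than 1, each set to 0 at its own wild-type mean on the log2 scale. The probe sets of Ndrg1, Mxi1 and P4ha1 keep 1 order of the groups. For Vegfa they part in tumor, at 0.08 and 0.53, and for Adm in adjacent liver, at -0.18 and 0.22.

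The regulators of the pathway were measured in the same pieces. Hif1a was higher in tumor than in wild-type liver by 0.66 and in adjacent than in wild-type liver by 0.43 (limma adjusted p = 4.17e-05 and 0.00108). Epas1 was higher by 0.43 and 0.40 (limma adjusted p = 0.000326 and 0.00055). All 4 differences were under 2-fold, and both proteins are controlled chiefly after translation, which arrays do not measure. Sart1 read 7.77, 7.71 and 7.75 in tumor, 8.34, 8.39 and 8.38 in adjacent liver, and 8.35, 8.32 and 8.36 in wild-type liver. Tumor lay below both other groups, by -0.60 against wild type, while adjacent liver, which carries the SART1+/- label, differed from wild type by 0.03 (limma adjusted p = 3.4e-06 and 0.696). The position of the probes against the changed part of the allele is not known here, so this level may not test the genotype.

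Of the 12 regulators, 1 was called. Egln3, a prolyl hydroxylase that is itself a hypoxia target, rose by 1.04 in tumor against wild-type liver and by 1.98 in tumor against adjacent liver (limma adjusted p = 0.000312 and 5.52e-06). In adjacent against wild-type liver it differed by -0.94 (limma adjusted p = 0.000682), under the limit of 2-fold. Against wild-type liver, the other hydroxylases were lower in tumor by less than 2-fold, Egln1 at -0.63, Hif1an at -0.44 and Egln2 at -0.15 (limma adjusted p = 3.17e-05, 0.000743 and 0.0349). Ndrg1 and Egln3, both hypoxia targets, thus stood in a different order across the groups: Ndrg1 was highest in adjacent liver and Egln3 lowest there.

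A second list of 23 tested hypoxia-induced genes outside glycolysis, which shares no gene with the 10, had 5 genes called higher and 2 lower in tumor against wild-type liver, with a median of 0.20. Among them Igfbp1, a binding protein for insulin-like growth factors, rose by 2.20, Stc1, a secreted glycoprotein, by 1.56 and Hilpda, a lipid droplet protein, by 1.07, while Nfil3, a clock-linked repressor, fell by 2.03 on the log2 scale (limma adjusted p = 5.65e-09, 6.15e-05, 1.88e-06 and 3.76e-09). In adjacent liver 1 was called higher and 2 lower, with a median of -0.04, and Ddit4, an inhibitor of mTOR, fell by 1.42 on the log2 scale (limma adjusted p = 6.79e-07). In tumor against adjacent liver 5 were called higher and 1 lower, with a median of 0.36, and Igfbp1 rose by 2.48 and Ddit4 by 1.62 (limma adjusted p = 1.86e-08 and 6.93e-07). Egln3 belongs to this list as well as to the regulators. Of 16 glycolytic hypoxia genes, 5 rose and 1 fell in tumor against wild-type liver (median 0.22). In adjacent liver 2 rose and 2 fell (median -0.00), and 1 rose in tumor against adjacent liver (median 0.17). Against wild type, the glucose transporter Slc2a1 rose by 1.41 in tumor (limma adjusted p = 6.61e-06). Pdk1, a kinase that inhibits pyruvate dehydrogenase, fell there by 1.28 on the log2 scale (limma adjusted p = 1.59e-05).

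**Figure D4:**
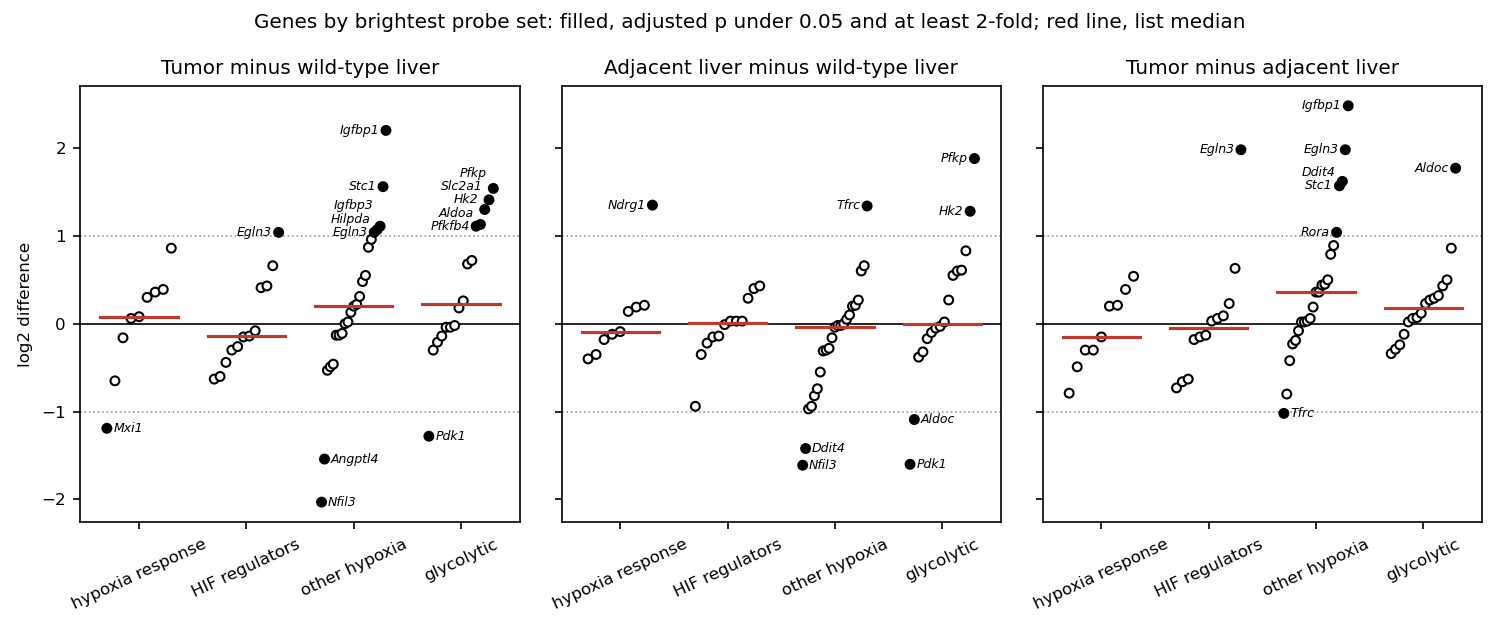
Log2 differences of single genes (brightest probe set) in 4 lists, with tumor minus wild-type liver on the left, adjacent minus wild-type liver in the middle and tumor minus adjacent liver on the right. Filled points with names were called, dotted lines mark 2-fold and red lines are list medians. The 9 tested genes described here have medians of 0.08, -0.09 and -0.15 in the 3 panels, and Egln3 appears in both the regulator list and the list of other hypoxia genes.

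By size the 10 genes spread widely. Over the brightest probe sets the range of the group means was 1.35 for Ndrg1, 1.19 for Mxi1 and 0.65 for Bnip3, then 0.54 for Adm, 0.39 for Kdm3a and P4ha1, 0.30 for Bhlhe40, 0.21 for P4ha2 and 0.20 for Vegfa. The median size of the difference over the 17 probe sets, without regard to sign, was 0.53 for tumor against wild-type liver, where it was 0.28 over all probe sets. It was 0.22 against 0.28 for adjacent against wild-type liver, and 0.41 against 0.19 for tumor against adjacent liver. For 2 of the 3 comparisons the size was thus above that of all probe sets, but the 5 Ndrg1 probe sets weigh on each of these medians. By brightest probe set of each gene it was 0.36 against 0.29, 0.19 against 0.28 and 0.30 against 0.19 in the same comparisons.

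**Figure D5:**
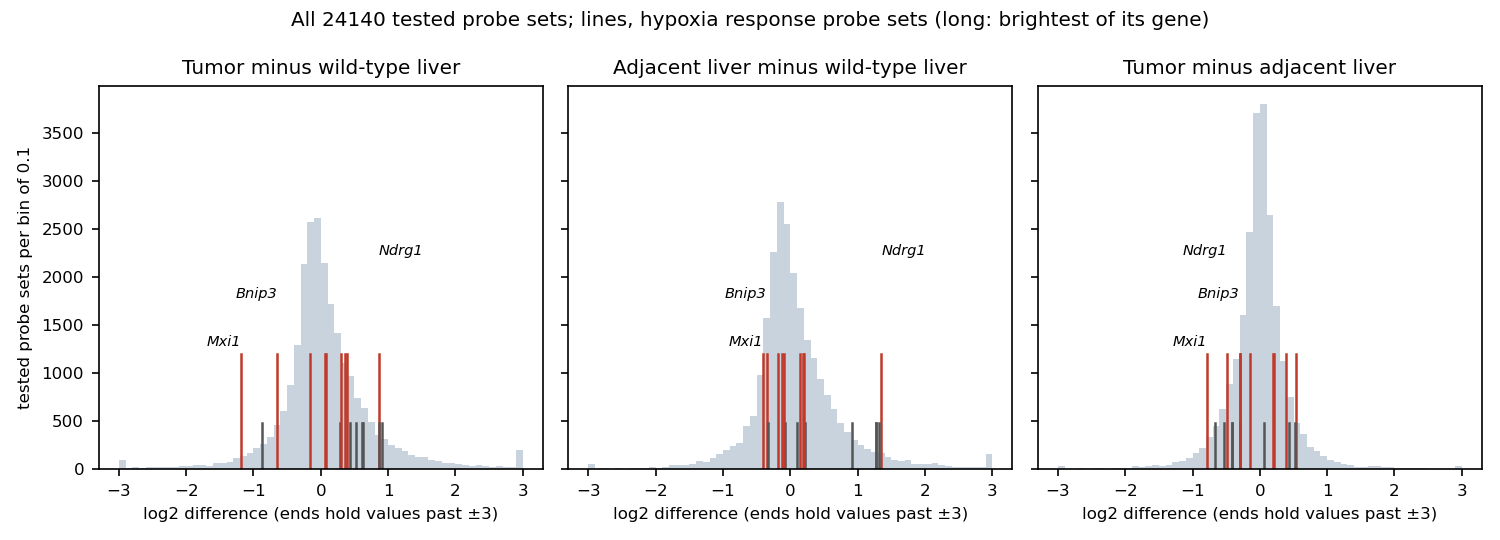
Histograms of the log2 differences of all 24140 tested probe sets in bins of 0.1, with tumor minus wild-type liver on the left, adjacent minus wild-type liver in the middle and tumor minus adjacent liver on the right. Long red lines mark the brightest probe set of each of the 9 genes and short grey lines the others. The outermost lines with names are Mxi1 at -1.19 on the left and Ndrg1 at 1.35 in the middle.

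For the 3 genes with the widest range, the genes whose levels over the 9 arrays were most alike among 13887 others were found by Pearson's r, as a description. The 9 arrays form 3 groups from 2 animals, so a high r needs little more than the same order and spacing of 3 group means. Ndrg1 was most like Rras (r = 0.9941), Net1 (0.9937) and Cab39 (0.9878). Mxi1 was most like Lonrf3 (r = 0.9976), Wfdc21 (0.9959) and Htatsf1 (0.9947), and Bnip3 most like Rwdd4a (r = 0.9928), Utp3 (0.9925) and Strap (0.9897).

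Marker sums of several cell types and measures of RNA integrity differed between the groups. Hepatocyte markers, 9 tested, summed to linear levels of 77824 to 78377 in tumor, 81727 to 84227 in adjacent liver and 110084 to 111014 in wild-type liver, so the labelled tissue showed its markers in every piece. Of these 9, 4 fell and 0 rose in tumor and in adjacent liver against wild-type liver (limma). Ass1 was 1 of the 4 in each comparison. Its probe set passed the filter on 3 arrays, with 5.58 to 5.88 in wild-type liver and 4.50 to 4.84 in tumor and adjacent liver. It was thus tested only through the group where it is high, and its fall is not counted as support. Macrophage markers (11) summed to 14176 to 16994 in tumor, 11467 to 14062 in adjacent liver and 6723 to 7235 in wild-type liver. Neutrophil markers (5) summed to 1534 to 1781, 1202 to 1466 and 448 to 502 in the same order, B cell markers (3) to 260 to 296, 167 to 211 and 133 to 161, and cholangiocyte markers (4) to 492 to 499, 450 to 510 and 393 to 418. T cell markers (5) were at 522 to 533, 502 to 593 and 496 to 525. The single tested erythroid marker and Hba-a1, which lay below the filter, summed to 330 to 369, 442 to 455 and 2088 to 2201. A linear sum weighs bright markers most, and markers of a list did not all move together. In tumor against wild-type liver, 8 of 11 macrophage markers were higher and 1, Marco, lower at an adjusted p under 0.05 (limma). By that rule 3 of 5 neutrophil markers and 1 of 4 cholangiocyte markers were higher, and the rest of these did not pass. Among the macrophage markers counted higher, Itgam passed the filter on 4 arrays, with wild-type liver at 4.39 to 4.79, below the 40th percentile. The difference between the 3′ and 5′ probe sets of Actb, a measure of RNA integrity, was 0.5393 to 0.6942 in tumor, 0.8188 to 0.9068 in adjacent liver and 0.8339 to 0.8837 in wild-type liver. For Gapdh the same difference was 0.2012 to 0.2264 in tumor, 0.1465 to 0.1822 in adjacent liver and 0.2567 to 0.2901 in wild-type liver. Actb was thus lowest in tumor and Gapdh in adjacent liver. The hepatocyte sum and the levels of Mxi1 and Bnip3 share the order tumor, adjacent liver, wild type from low to high. Single hepatocyte markers did not all keep this order. In tumor against wild-type liver 7 of the 9 were lower and 1, Apoa1, higher at an adjusted p under 0.05 (limma), and Alb differed by 0.00. In tumor against adjacent liver 3 were lower and 1, Fah, was higher, by 0.30 (limma adjusted p = 0.00119). The part of tissue make-up and RNA integrity in the levels of Mxi1 and Bnip3 was not tested.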

How the data were processed

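RNA from 9 tissue pieces was hybridised to 1-colour Affymetrix 3′ arrays. The deposited log2 values were produced by the authors with RMA; the software was Expression Console 1.3.1.187 from Affymetrix, per the submitters' processing notes. This method corrects background, equalises the arrays' distributions and summarises each probe set. Array medians were 5.7584 to 5.8124. The number of arrays limits the precision, and 0 pairs of arrays were identical.

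Probe sets were named through the platform annotation: 34958 had 1 symbol, 932 several and 9211 none, and only the first kind was used. A probe set was tested when above its array's 40th percentile on at least 3 of 9 arrays. This left 24140. limma 3.58.1 in R 4.3.3 (lmFit, eBayes) fitted 1 mean per group with 6 residual degrees of freedom, and p-values were adjusted by Benjamini-Hochberg over all 24140. The step was tested on simulated data. Calls needed an adjusted p under 0.05 and at least 2-fold.

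A gene with several probe sets was counted by the one with the highest mean. The 10 genes, 12 pathway lists and 9 marker lists were chosen with earlier results of these data known. Named are all probe sets of the 10 genes, up to 4 genes of each pathway list with the smallest adjusted p per comparison, Hif1a, Epas1 and Sart1, and the 3 most similar genes of the 3 widest-ranging genes. Kdr, Stc1 and Egln2 lie outside it and were picked with their values in view. Marker sums are of linear values (2 to the power of the level). Alternatives covered threshold, filter, probe set rule, normalization, variance model, samples in the fit, the replicate block and each array left out.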

Additional observations from a re-analysis of the deposited data

How the results depend on the processing

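None of the 51 differences of the tested probe sets (17 in each of 3 comparisons) changed sign as a call or lost a call under the settings tried: of 1020 repeats, 985 kept their side of the call and 35 became calls, most when the 2-fold limit was dropped. With adjusted p alone as the rule, 31 of 969 repeats lost the threshold and 10 gained it, and these stand beside their genes, each alone or as the highest adjusted p of the result. With adjusted p alone, calls among the 17 probe sets became 14 for tumor against wild-type liver (1 with the 2-fold limit), 10 for adjacent against wild-type liver (4 with it) and 14 for tumor against adjacent liver (0 with it). Over all probe sets they became 14757, 14690 and 10534, where the limit gave 2901, 2578 and 1140. Testing 1 probe set per gene gave 1806, 1599 and 700 calls over all genes, and the mean of a gene's probe sets gave 1488, 1257 and 567. For the genes described here both gave 1 call in adjacent against wild-type liver, Ndrg1, in place of its 4 probe sets, because fewer features were tested. Leaving out each array in turn gave 1 to 3 calls of 17 for tumor against wild-type liver, with 3 reached without tumor replicate 2, and 4 and 0 in every such fit of the other comparisons. Over all probe sets these fits gave 2869 to 2953, 2558 to 2644 and 1121 to 1176 calls. Same-numbered pieces deviated together by r = -0.124 to 0.132, so the numbers do not pair the pieces. With the replicate number as a block the counts were 1, 4 and 0 among the 17 probe sets and 2901, 2578 and 1140 over all. Cyclic loess changed the tested probe sets of an array by a median of -0.0257 to 0.0121. Probe sets near the bottom of the scale, such as that of Ankrd37, are limited by signal over background, and the sources used here name no scan batch.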
